A study of Rattus norvegicus with 2 samples.

Results

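Some transcript clusters of a rat whole-transcript array stand for more than 1 gene: the platform's annotation gives them several gene symbols, and their single value cannot be divided among those genes. Such a cluster is called a shared locus here. The shared loci were all clusters whose symbol field held 2 or more symbols, and they numbered 505 of 68842. Of these, 461 had exactly 2 symbols and 44 had 3 or more, up to 13, so that 1113 symbols in all were tied to a shared value. A shared locus was described further where at least 1 of its values was not under the median of the table, an intensity of 49.3 on both arrays, and 296 loci met this floor. Loci are written with their symbols joined by a slash.

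The RNA came from primary cardiomyocytes of neonatal SD rats that had been in culture for several days. One culture group received lipopolysaccharide (LPS), a component of bacterial outer membranes that Toll-like receptor 4 recognises, at 100 ng/mL, and the other received vehicle. RNA of both was taken 24 h later and hybridised to 1 array per group. No genetic change or second agent is recorded for either group, and the series title names septic cardiomyopathy, phospholipid metabolism and the hypoxia-inducible factor HIF-1α as its subject. With 1 array per group there is no spread between samples and no replicate check, so every difference below describes these 2 arrays and carries no test.

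Genes come to share a cluster in several ways. Duplicated genes, such as the class I genes of the major histocompatibility complex (MHC) or the histone genes, can be so alike that the same stretches of sequence belong to several copies. Other genes lie inside one another or side by side on a chromosome, as most intronic microRNA genes do with their hosts. MicroRNAs are short RNAs that are cut from such longer transcripts and repress messenger RNAs through their seed, bases 2 to 8; a whole-transcript array of this kind labels the longer transcript and not the mature microRNA. When LPS acts on heart tissue or its cells, Toll-like receptor 4 signalling is known to act through NF-κB and, by way of interferons, through interferon response elements, and MHC class I, complement and interferon-induced GTPase genes are textbook targets of these routes.

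The shared microRNA loci turned on a few mature sequences, printed here 5′ to 3′ with the seed in capitals, from RefSeq's annotation of the rat assembly GRCr8. The first 3 come from the locus with the largest lower value, Mir322 / Mir351 / Mir503 on the minus strand of chromosome X, at chrX:137726198-137726219, chrX:137725157-137725181 and chrX:137725899-137725921.
rno-miR-322-5p: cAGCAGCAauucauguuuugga
rno-miR-351-5p: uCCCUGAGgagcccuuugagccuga
rno-miR-503-5p: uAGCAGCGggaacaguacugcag
The next 4 come from Mir99b / Mir125a, Myh6 / Mir208a, Vmp1 / Mir21 and H19 / Mir675, at chr1:67350689-67350712 on the plus strand and at chr15:32395568-32395585, chr10:71902653-71902674 and chr1:207161800-207161821 on the minus strand.
rno-miR-125a-5p: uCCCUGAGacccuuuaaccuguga
rno-miR-208a-3p: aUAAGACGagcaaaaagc
rno-miR-21-5p: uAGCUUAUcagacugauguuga
rno-miR-675-5p: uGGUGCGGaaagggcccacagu
Of the 41 microRNA symbols at shared loci above the floor, 38 matched RefSeq entries, with 60 mature sequences. Among those 60, miR-351-5p and miR-125a-5p were the only ones to share a seed, CCCUGAG, and they came from different loci. The seed of miR-322-5p, AGCAGCA, was also that of 4 other rat microRNAs in the table, miR-15b-5p, miR-16-5p, miR-195-5p and miR-497-5p.

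Shared loci of immune genes also carried the largest higher values, and the stretches around the start sites of 4 of their genes are shown for comparison within a pair. Each runs from 250 bases before to 50 bases after the start given by RefSeq on GRCr8. Capitals mark matches on either strand to GGG, any 5 bases and CC, a loose form of the NF-κB site, or to GAAA, any 2 bases and GAAA, the core of the interferon-stimulated response element. The intervals are chr20:4872621-4872920, chr20:4906959-4907258, chr10:42874797-42875096 and chr10:42889720-42890019 in the order printed, all on the plus strand.
RT1-A2: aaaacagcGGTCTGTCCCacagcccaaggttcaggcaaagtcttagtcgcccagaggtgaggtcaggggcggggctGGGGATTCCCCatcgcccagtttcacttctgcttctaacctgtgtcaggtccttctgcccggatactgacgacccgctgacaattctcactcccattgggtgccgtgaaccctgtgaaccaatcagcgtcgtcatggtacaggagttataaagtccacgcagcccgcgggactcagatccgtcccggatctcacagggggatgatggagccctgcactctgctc
RT1-A1: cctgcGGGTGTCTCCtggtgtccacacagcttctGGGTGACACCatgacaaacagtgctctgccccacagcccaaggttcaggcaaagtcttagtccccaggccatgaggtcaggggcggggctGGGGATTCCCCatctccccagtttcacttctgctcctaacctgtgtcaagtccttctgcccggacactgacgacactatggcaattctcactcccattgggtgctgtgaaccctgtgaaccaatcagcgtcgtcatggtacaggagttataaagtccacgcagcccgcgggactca
Igtp: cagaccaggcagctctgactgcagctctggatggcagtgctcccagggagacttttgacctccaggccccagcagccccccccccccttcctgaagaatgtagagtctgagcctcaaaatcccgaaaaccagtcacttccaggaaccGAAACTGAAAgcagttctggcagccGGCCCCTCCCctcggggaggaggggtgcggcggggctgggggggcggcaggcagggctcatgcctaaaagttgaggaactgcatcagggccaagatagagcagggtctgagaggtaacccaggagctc
Irgm2: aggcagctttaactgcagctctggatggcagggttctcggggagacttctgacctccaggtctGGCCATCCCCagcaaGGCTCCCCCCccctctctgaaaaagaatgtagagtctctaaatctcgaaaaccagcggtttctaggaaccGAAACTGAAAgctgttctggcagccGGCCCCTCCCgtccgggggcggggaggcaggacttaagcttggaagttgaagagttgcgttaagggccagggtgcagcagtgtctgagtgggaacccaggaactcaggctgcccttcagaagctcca
RT1-A2 and RT1-A1 both held the run GGGGATTCCCC, which starts 174 and 126 bases before their start sites. Igtp and Irgm2 both held GAAACTGAAA, at 103 and 102 bases before the start. The pairs shown are not those of the largest differences. C2 / Cfb had no RefSeq window, and the windows of Slfn4, Slfn3 and RT1-T24-4 held no match to either pattern. With gap columns counted as differences, 236 of 351 alignment columns (67.2%) were identical between RT1-A2 and RT1-A1. Between Igtp and Irgm2 it was 226 of 336 (67.3%). The shared run lies at different distances from the RT1 starts, so the windows are offset. These shares are therefore lower than the identity of the bases that were paired.

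The 296 shared loci were, as a set, close to the clusters with 1 symbol. LPS was at least 2-fold higher than vehicle at 12 shared loci (4.05%), beside 3.65% of the 15135 clusters with 1 symbol, 1.94% of the 19290 with none and 2.7% of all 34721 clusters above the floor. It was at least 2-fold lower at 5 shared loci (1.69%), beside 2.63% of those with 1 symbol, 0.783% of those with none and 1.6% of all. The median difference, LPS minus vehicle on the log2 scale, was 0 for shared loci, for clusters with 1 symbol and for all clusters. Exactly identical values on both arrays were found at 149 shared loci (50.3%), beside 48.0% of all clusters. They matched to the last deposited digit and occurred at high levels too, as at the ribosomal RNA locus (275857). How such ties arose was not tested, so an identical value is not read as a measured lack of difference. Of the others, 56 were higher and 91 lower with LPS, beside 3369 and 4819 of the clusters with 1 symbol and 10164 and 7877 of all clusters. After removal of a loess trend of difference on level, which gives identical values a sign, 46 shared loci were higher and 250 lower, beside 8193 and 26528 of all clusters. On the deposited values, 80.1% of the 296 lay within 1.2-fold.

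**Figure D1:**
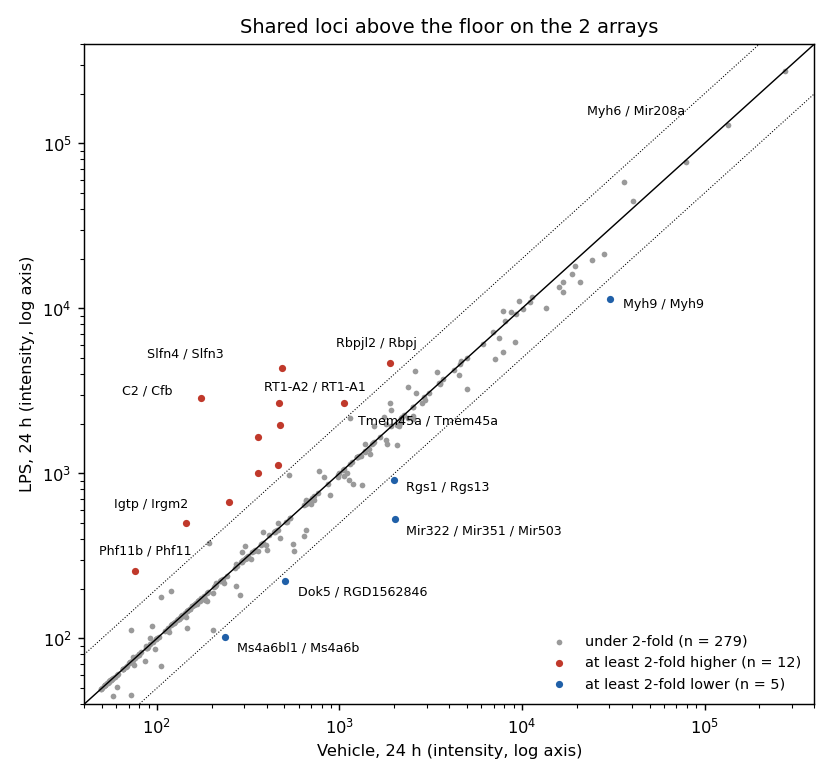
Intensity of the 296 shared loci above the floor with vehicle (horizontal, log axis) and LPS (vertical, log axis), 1 point per locus and 1 array per group; the solid line marks equal values and the dotted lines 2-fold. The 12 loci at least 2-fold higher lie at vehicle intensities from 76.2 (Phf11b / Phf11) to 1902 (Rbpjl2 / Rbpj), while Myh6 / Mir208a, near the top of the range, lies close to the line of equal values.

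The largest difference among the shared loci belonged to C2 / Cfb. C2 encodes the protease of the classical and lectin complement pathways and Cfb, factor B, its counterpart in the alternative pathway; RefSeq places the genes next to each other. C2 / Cfb measured 175 with vehicle and 2873 with LPS, a log2 difference of 4.04 or 16.4-fold. Neither gene had a cluster of its own, so which of the neighbours gave the value cannot be told apart.

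Class I genes of RT1, the rat MHC, made up 5 of the 12 higher loci, and these were all the shared loci above the floor whose symbols began with RT1. RT1-A2 / RT1-A1, classical class I genes that present peptides to CD8 T cells, measured 465 with vehicle and 2677 with LPS, a log2 difference of 2.52. RT1-T24-4 / RT1-T24-3 had 359 and 1654, a log2 difference of 2.20. The locus with 6 symbols, RT1-CE11 / RT1-CE12 / RT1-CE2 / RT1-CE7 / RT1-CE6 / RT1-CE4, had 474 and 1975, a log2 difference of 2.06. The RT1-CE symbols name a series of class I copies in the same region, and RT1-CE2 occurred in more than 1 shared locus. RT1-CE5 / RT1-CE2 had 248 with vehicle and 673 with LPS, a log2 difference of 1.44. RT1-A3 / RT1-CE16 had 460 and 1130, a log2 difference of 1.30. Class I copies can share long stretches of sequence, so the 5 values may rest in part on the same RNA and are not 5 separate observations.

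In the list of complement and MHC genes, 7 shared loci were above the floor, and 6 of them were at least 2-fold higher, with a median log2 difference of 2.06. The seventh was Cd59b / D430041D05Rikl; Cd59 proteins block the membrane attack complex. It had 2602 with vehicle and 4182 with LPS, a log2 difference of 0.68. Among clusters with 1 symbol from the same list, 20 of 56 were at least 2-fold higher and 3 were that much lower; their median was 0.15. Of the 20 single-symbol RT1 clusters above the floor, 8 were higher and 2 lower by that size, and their median was 0.20. Higher values were found at all the shared RT1 loci but at a part of these clusters. The 2 sets are not matched: single-symbol clusters were taken by the letters RT1 whatever their class, and the shared class I loci are not separate observations.

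Interferon-induced genes were also among the higher loci. Slfn4 / Slfn3, Schlafen genes that interferons induce in mouse, measured 485 with vehicle and 4352 with LPS, a log2 difference of 3.16. Igtp / Irgm2, immunity-related GTPases that in mouse guard cells against intracellular pathogens, had 145 and 501, a log2 difference of 1.79. Its fold of 3.46 became 2.10 when every value below 239, which is the 75th percentile of the means of both arrays, was set to 239. Trim5 / Trim30d, of the tripartite motif family, had 106 with vehicle and 179 with LPS, a log2 difference of 0.76, and both values lie under 239. The interferon list had 6 shared loci above the floor: 2 at least 2-fold higher, 0 at least 2-fold lower and 2 identical, with a median of 0.38. One of the 6, H2ac25 / Trim17, holds a histone gene and was lower, at 636 and 415. Of the 103 single-symbol clusters of that list, 39 passed 2-fold upwards and 1 downwards; the median was 0.28.

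The other 4 higher loci came from mixed families. Phf11b / Phf11, which encode PHD finger proteins, had 76.2 with vehicle and 255 with LPS, a log2 difference of 1.75. The vehicle value was low, and with low values raised to 239 its fold of 3.35 became 1.07. Cyp4f37 / Cyp4f5 belong to the cytochrome P450 4F family, whose members hydroxylate fatty acids and eicosanoids such as leukotriene B4. That locus had 359 with vehicle and 1003 with LPS, a log2 difference of 1.48. Tmem45a / Tmem45a carried the same symbol more than once and resolved to 1 current gene, with 1059 and 2673, a log2 difference of 1.34. Rbpjl2 / Rbpj pairs the DNA-binding factor of Notch signalling, Rbpj, with a related gene on another chromosome. It had 1902 with vehicle and 4657 with LPS, a log2 difference of 1.29. Just under 2-fold lay Ccbl2 / Kat3, former symbols of 1 kynurenine aminotransferase gene, at 193 and 380 with a log2 difference of 0.98. Adgrg6 / Gpr126, the present and former symbols of an adhesion G protein-coupled receptor, was at 1145 and 2156 with a log2 difference of 0.91.

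**Figure D2:**
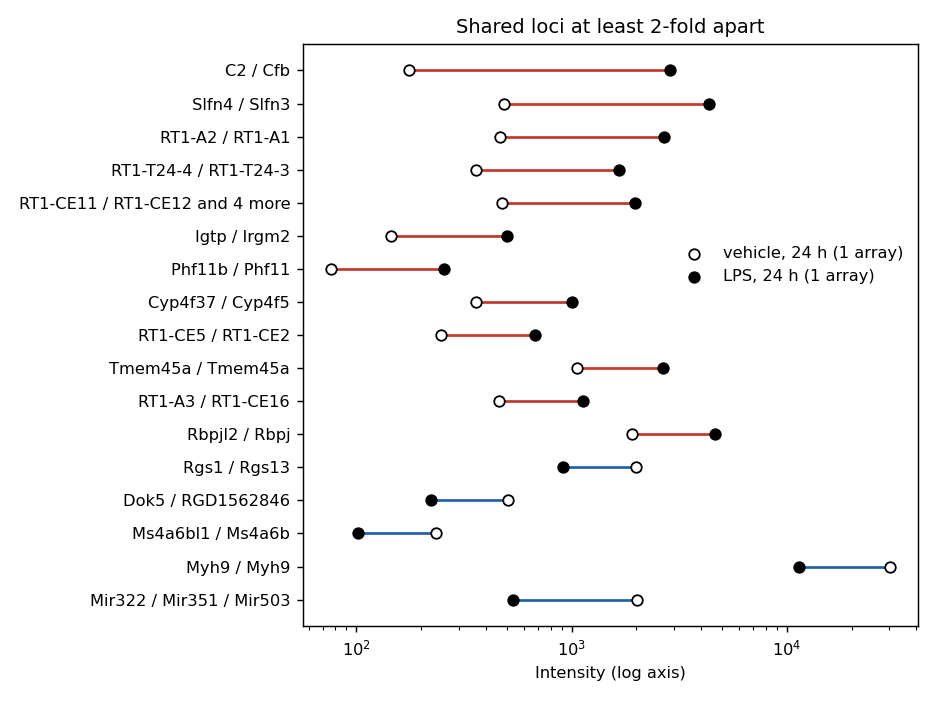
Intensity (log axis) of the 17 shared loci at least 2-fold apart, with vehicle as open circles and LPS as filled circles, 1 array each; red lines mark higher and blue lines lower loci. C2 / Cfb spans the widest interval, from 175 to 2873, and Mir322 / Mir351 / Mir503 the widest downward one, from 2019 to 533.

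Of the 5 loci at least 2-fold lower, the microRNA cluster Mir322 / Mir351 / Mir503 differed most. Its members lie next to each other on the minus strand, and in mouse muscle precursors miR-322 and miR-503 are known to promote exit from the cell cycle. The shared cluster had 2019 with vehicle and 533 with LPS, a log2 difference of −1.92. Each gene also had a cluster of its own, and these did not show the same difference. All their values were under 239, and those of Mir322 were close to the floor, so they are a weak check on the shared value. Mir322 was identical at 53.2, Mir503 was identical at 127, and Mir351 had 75.8 with vehicle and 49.5 with LPS. The value of the shared cluster is that of a longer transcript, and the mature sequences printed above were not measured.

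Myh9 / Myh9 resolved to 1 current gene, which encodes the heavy chain of non-muscle myosin IIA, found in many cell types. It had 30329 with vehicle and 11433 with LPS, a log2 difference of −1.41. Ms4a6bl1 / Ms4a6b, of the membrane-spanning 4A family of leukocytes, had 236 and 101, a log2 difference of −1.22. Both of those values lie under 239, and raising them left no difference. Dok5 / RGD1562846, 1 current gene for an adaptor of receptor tyrosine kinases, had 506 and 222, a log2 difference of −1.19. Rgs1 / Rgs13, neighbouring genes whose products shorten G protein signalling, had 1986 with vehicle and 911 with LPS, a log2 difference of −1.12. Rgs13 also had a cluster of its own, with identical values under the floor.

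Markers of the cell types that such cultures can hold were read on the same arrays, on which fewer cells of a type and less RNA per cell cannot be told apart. All 7 cardiomyocyte markers were above the floor, and their summed intensity was 824548 with vehicle and 785050 with LPS. Only Actc1 was lower, with a log2 difference of −0.58 (256258 with vehicle and 171972 with LPS). Nppa had 0.18, Tnni3 0.13 and Tnnt2 0.06, and Myh7, Ttn and Ryr2 were identical. Markers of other cells were also above the floor on at least 1 array, 5 of 5 for fibroblasts, 7 of 7 for macrophages, 4 of 4 for endothelium and 4 of 4 for smooth muscle. Summed macrophage markers were 23528 with vehicle and 32099 with LPS, fibroblast markers 322060 and 458523, and endothelial markers 1232 and 2381. Smooth muscle markers summed to 383462 and 130225. All 4 smooth muscle markers were lower, with log2 differences of −2.29 for Tagln, −1.49 for Acta2, −0.72 for Cnn1 and −0.57 for Myh11. The markers of cardiomyocytes, macrophages, fibroblasts and endothelium did not move together within their type. Among macrophage markers, Adgre1 had a log2 difference of 7.09 (64.4 with vehicle and 8803 with LPS) and Cd14 of 1.97, whereas Csf1r had −1.76, C1qb −2.02, C1qa −0.55, Ptprc −0.26 and Cd68 −0.13. Among fibroblast markers, Dcn had 3.68 and Pdgfra 3.40, whereas Thy1 had −1.95, Col1a2 −0.50 and Col1a1 −0.33. Of the endothelial markers, Kdr was higher at 1.47, Pecam1 was identical, and Tek and Cdh5 were lower at −0.49 and −0.19. The part of these shifts in the values of C2 / Cfb, the RT1 loci, Ms4a6bl1 / Ms4a6b or Myh9 / Myh9 was not tested.

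The shared loci were sorted by their symbols into 6 kinds. Family copies, with symbols that begin alike, numbered 232, of which 111 were above the floor. They held 10 of the 12 higher loci and 3 of the 5 lower ones, and 46 were identical on both arrays. The sorting used letters alone. Tmem45a / Tmem45a among the higher and Myh9 / Myh9 among the lower were thus counted, though each resolved to 1 current gene. The 5 RT1 loci, which are not separate observations, were among the higher ones. Differently named genes numbered 177, of which 131 were above the floor. They held 2 higher loci, C2 / Cfb and Igtp / Irgm2, and 0 lower ones, and 79 (60.3%) were identical. A named gene with a predicted gene, or predicted genes alone, made up 30 loci, with 19 above the floor and 1 of them lower. Chemoreceptor families made up 22 loci, of which 1, Vom2r36 / Vom2r34, reached the floor, at 57.7 on both arrays. When current olfactory receptor symbols were counted with them there were 103 receptor loci, of which 9 reached the floor, 8 with identical values. No locus carried a symbol of another small RNA, such as a small nucleolar RNA.

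**Figure D3:**
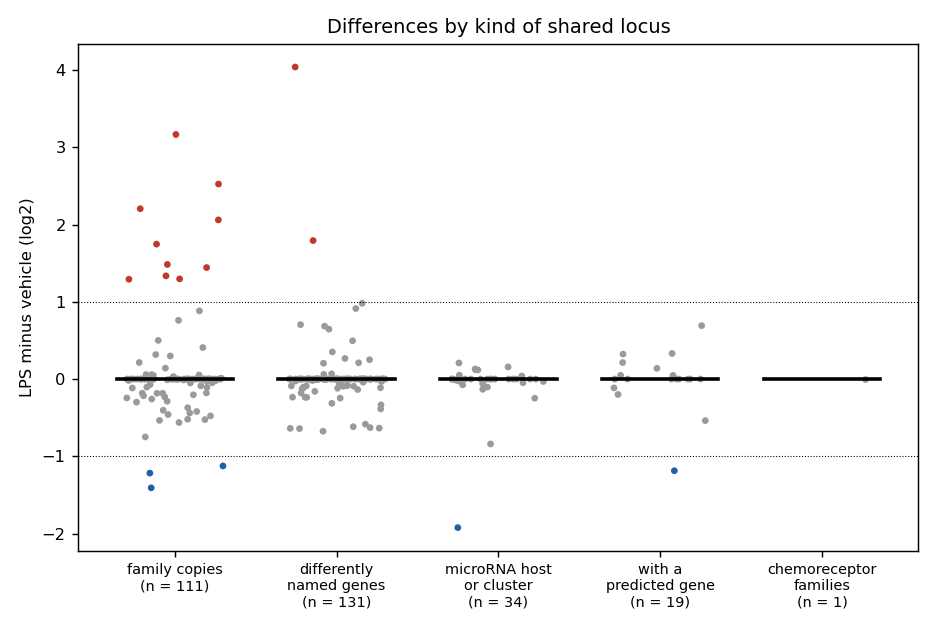
Log2 difference, LPS minus vehicle, of the 296 shared loci above the floor by kind; each point is a locus, horizontal bars are medians, dotted lines mark 2-fold and the sideways spread of points is arbitrary. All medians lie at 0, and the higher points (red) sit among family copies and differently named genes.

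MicroRNA loci numbered 44, of which 34 were above the floor. Apart from Mir322 / Mir351 / Mir503, none was 2-fold apart, 15 had identical values and 94.1% lay within 1.2-fold. Myh6 / Mir208a was the most cardiac of them: Myh6 encodes the alpha myosin heavy chain of heart muscle, and miR-208a is cut from one of its introns. Its intensity was 133819 with vehicle and 128354 with LPS, a log2 difference of −0.06. Vmp1 / Mir21, an autophagy gene with the neighbouring gene of miR-21, a microRNA known from inflamed and fibrotic hearts, had 9662 and 11159, a log2 difference of 0.21. H19 / Mir675, an imprinted long noncoding RNA and the microRNA cut from it, had 202 and 113, a log2 difference of −0.84, with both values under 239. Mir99b / Mir125a, which holds the seed that miR-351-5p shares, had 458 and 501, a log2 difference of 0.13. Loci of the same seed thus stood at −1.92 and 0.13.

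The remaining microRNA hosts were close to equal. Zranb2 / Mir186 had a log2 difference of 0.16, Dnaja1 / Mir207 of 0.12 and Plxnb2 / Mir349 of 0.12. Cnot3 / Mir3572 had −0.13, Dgcr8 / Mir1306 −0.10 and Aopep / Mir24-1 −0.08. Dgcr8 encodes a partner of Drosha in microRNA processing, and its locus had 697 with vehicle and 649 with LPS. Mir23b / Mir27b, microRNAs of 1 primary transcript, were identical at 211. Mir370 / Mir1188, from an imprinted region, had 60.7 and 51.1, a log2 difference of −0.25. The locus with the most symbols, 13 microRNAs that include Mir134 and Mir410, lay under the floor at 28.0 on both arrays.

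Of 3 shared loci with myosin symbols, all were lower, with a median of −0.53; Myh9 / Myh9, described above, had the largest difference and Myh6 / Mir208a the smallest, and Myh9 and Myl6 are not confined to heart muscle. Myl6l / Myl6 / Myl6b, which encode essential light chains of non-muscle and smooth muscle myosin, had 7917 with vehicle and 5465 with LPS. Single-symbol clusters of the heart muscle list numbered 55, of which 0 passed 2-fold upwards and 7 downwards; their median was −0.10.

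Histone loci were lower or identical. Of the 10 above the floor, 6 were lower and 4 identical, with a median of −0.17, and 0 were 2-fold apart. The largest difference was that of hist1h2ail2 / Hist1h2an, copies of a core histone gene, with 566 and 337 and a log2 difference of −0.75. H3f3b / H3f3a, which encode the replacement histone H3.3 and are expressed outside the cell cycle too, were identical at 9307. In the cell cycle and histone list as a whole, 33 of 173 single-symbol clusters passed 2-fold downwards and 1 upwards; their median was −0.08.

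Ribosomal loci showed 10 lower and 2 identical values among 12, with a median of −0.18 and 0 at 2-fold. Rpl38 / Rpl38-ps3, a ribosomal protein gene with a pseudogene, had 13606 with vehicle and 10038 with LPS, a log2 difference of −0.44. Rpl9 occurred in 2 loci, with Rpl9-ps31 at 28129 and 21254 and with Rpl9-ps30 at 19482 and 18123, so their log2 differences were −0.40 and −0.10. Single-symbol clusters of the same list numbered 419, of which 1 passed 2-fold upwards and 0 downwards; their median was −0.06. The ribosomal RNA locus Rn18s / Rn45s / Rn28s / Rn5-8s was identical at 275857.

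Mitochondrial loci had the largest share of identical values among the lists, with 8 identical and 3 lower among 11 and a median of 0. The largest difference was that of Nme3 / Mrps34, a nucleoside diphosphate kinase gene beside a mitochondrial ribosome gene, with 117 and 110 and a log2 difference of −0.09. The levels of the 11 loci were low, with a median of 113, under 239, beside 766 for single-symbol mitochondrial clusters. Mrpl53 / Ccdc142 and Uqcr10 / Uqcr10-ps1 were identical. In own clusters, Mrpl53 had 5393 with vehicle and 3942 with LPS, a log2 difference of −0.45. Uqcr10 had −0.13 alone, whereas Mrps34 was identical alone. Among single-symbol mitochondrial clusters numbering 214, 1 passed 2-fold upwards and 0 downwards, and the median was −0.03. Removal of a loess trend of difference on level made the histone median −0.19, the ribosomal median −0.27 and the mitochondrial median −0.03, and left the direction of the first pair unchanged.

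**Figure D4:**
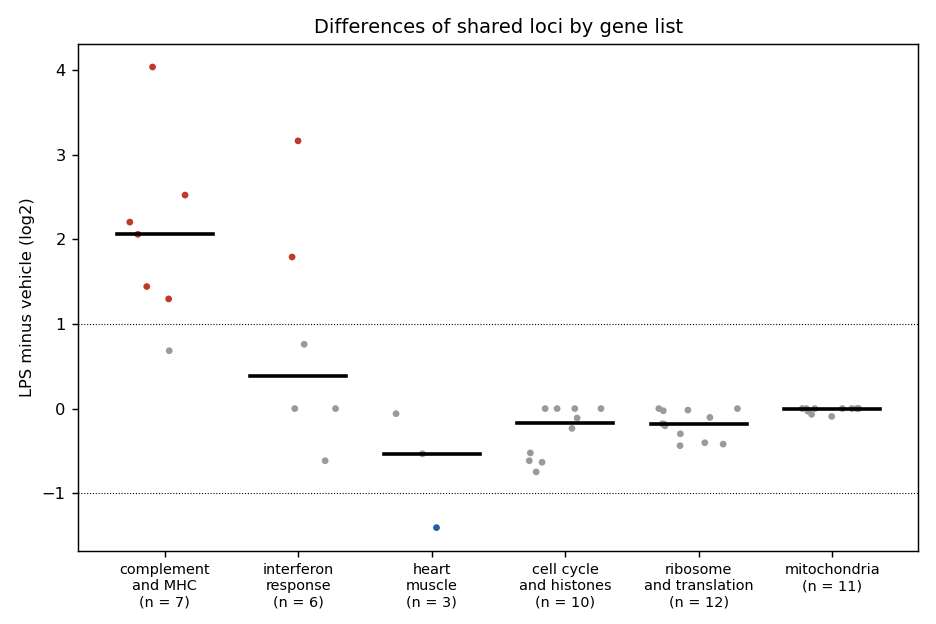
Log2 difference, LPS minus vehicle, of the shared loci above the floor in 6 gene lists; each point is a locus, horizontal bars are medians, dotted lines mark 2-fold and the sideways spread is arbitrary. All 7 complement and MHC loci lie above 0, and no histone, ribosomal or mitochondrial locus lies above 0.

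RefSeq's current annotation showed that the symbols of a shared locus were related in different ways. Among the 296 loci, the symbols of 34 named 1 current gene only, as with Myh9 and Dok5, so that these were shared in name alone. Overlapping genes made up 68 loci, genes next to each other 71, and genes apart on the same chromosome 81. Genes on different chromosomes made up 41 loci, and in 1 locus a symbol could not be placed. Neighbours held 3 higher and 3 lower loci, overlapping genes 2 and 0, and genes apart on the same chromosome 5 and 0. Of all clusters above the floor, 2.7% were higher and 1.6% lower by that size. The loci apart include RT1 loci such as RT1-A3 / RT1-CE16, which are not separate observations. Counts this small are not read as a trait of the arrangement.

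Loci whose genes lie on different chromosomes included many parent genes with a pseudogene or copy elsewhere. They were identical on both arrays in 24.4% of cases, beside 50.3% of all shared loci. Their levels were higher, with a median of 3516 beside 347, and several held ribosomal protein genes. The part of level or gene class in their values was not tested. Of the 41, 23 were lower and 8 higher with LPS, with a median of −0.05, and 1 was at least 2-fold higher, Rbpjl2 / Rbpj. Pkm / RGD1561179 pairs the glycolytic enzyme pyruvate kinase with a pseudogene. It had 36317 with vehicle and 58639 with LPS, a log2 difference of 0.69, and the cluster of Pkm alone had 21293 and 34781, a log2 difference of 0.71. Hnrnpa3 / LOC100911361, an RNA-binding protein gene with a predicted copy, had 20886 and 14387, a log2 difference of −0.54.

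Some symbols of shared loci also had a single-symbol cluster of their own above the floor, which allowed the differences to be set side by side. There were 137 such pairs from 123 shared loci. The shared and the own log2 difference lay within 1.2-fold of each other in 99 pairs, with a median gap of 0.09. Both clusters were on the same side of the 2-fold size in 126 pairs and on different sides in 11. Both were at least 2-fold higher in 6 pairs and both at least 2-fold lower in 3.

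Of the 8 own clusters of genes at higher loci, 3 lay within 1.2-fold of the shared difference, those of RT1-A1, Rbpj and Tmem45a. RT1-A1 alone had 143 with vehicle and 778 with LPS, a log2 difference of 2.44 beside 2.52 for the shared cluster. Rbpj alone had 1.30 beside 1.29. Tmem45a alone had 1423 with vehicle and 3769 with LPS, beside 1059 and 2673 in its shared cluster. RT1-CE4 had a larger difference alone, 2.55 beside 2.06. Cyp4f37 and Cyp4f5 also had larger ones alone, 2.22 and 2.36, than in their shared cluster at 1.48. Slfn4 and Phf11b had smaller ones and were under 2-fold alone. Slfn4 alone had 194 and 204, a log2 difference of 0.07, beside 3.16 for Slfn4 / Slfn3, and a further Slfn4 cluster had 184 and 209. Slfn3 had no cluster of its own. Phf11b alone had 127 and 202, a log2 difference of 0.67, beside 1.75 for Phf11b / Phf11. All the own values of Slfn4 and Phf11b were under 239, so they are a weak check on the shared values.

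Other genes differed more in an own cluster than in the shared one. Serpina3n, an acute-phase protease inhibitor, had 129 with vehicle and 957 with LPS in its own cluster, a log2 difference of 2.89, whereas Serpina3l / Serpina3n had 80.2 and 80.4. A further Serpina3n cluster lay under the floor with identical values. Lilrb3, an inhibitory receptor of myeloid cells, had 367 and 78.8 alone, a log2 difference of −2.22, while Lilrb2 / Lilrb3 was identical. Zfp469, a zinc finger gene, had 1024 and 195 alone, a log2 difference of −2.39, beside −0.10 for Tnrc18 / Zfp469. Hist1h4b had 3 own clusters: the one with the highest mean had 8294 and 2419, a log2 difference of −1.78, but the mean difference over all 3 was −0.60, beside −0.52 for Hist1h2ao / Hist1h4b. B430306N03Rikl had 86.8 and 230 alone, a log2 difference of 1.41, and was identical in its locus with Ncr2. Pcdhgc5, a clustered protocadherin, had −1.01 alone beside −0.26 in a locus of 12 symbols.

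**Figure D5:**
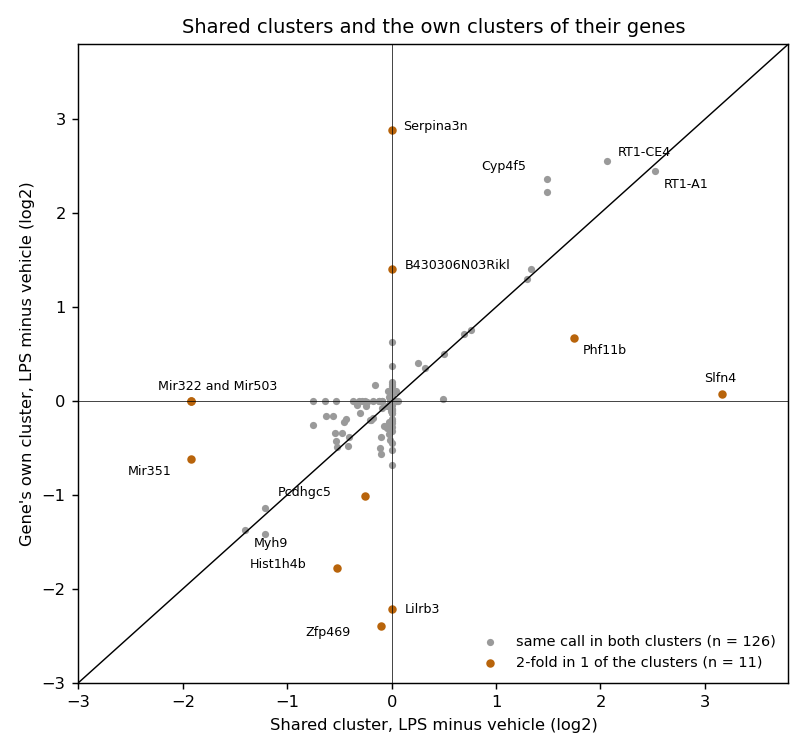
Log2 difference, LPS minus vehicle, of the shared cluster (horizontal) and of the single-symbol cluster of one of its genes (vertical) for 137 pairs, with the line of equal differences; orange marks the 11 pairs in which only 1 of the 2 clusters was at least 2-fold apart. Slfn4, at 3.16 and 0.07, and Serpina3n, at 0.0043 and 2.89, lie farthest from the line.

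The windows around start sites were compared for the 17 loci at least 2-fold apart, of which 15 had RefSeq entries for at least 1 gene, 28 genes in all. The loose NF-κB pattern, searched on both strands, occurred in 15 of 22 windows of higher loci (68.2%) and 3 of 6 of lower loci, beside 48.5% of all 27457 windows in the table. RT1 genes gave 12 of those 22 windows, and the windows of Igtp and Irgm2 are alike. The 22 are therefore not separate observations, for this pattern or the next. The interferon pattern occurred in 3 of 22 windows of higher loci (13.6%), those of Igtp, Irgm2 and Phf11b, and in 0 of 6 of lower loci, beside 3.77% of all windows. In Phf11b the match began 48 bases before the start, and Phf11 had no match. The longer run GGGGATTCCCC, which was picked after RT1 windows had been read, lay in 6 of 12 windows of the RT1 genes at higher loci and in 8 of 42 windows of all RT1 genes, beside 17 of all 27457. It overlaps the loose NF-κB pattern, so the counts are not separate. Its first base lay 174 bases before the start in RT1-A2 and RT1-CE11, 170 in RT1-A3, 194 in RT1-CE4, 131 in RT1-CE16 and 126 in RT1-A1. A match describes letters in a window and does not show that a factor binds there.

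Across shared loci of family copies, the start-site windows were 49.9% identical at the median of 144 gene pairs, beside 50.1% for 83 pairs of differently named genes. Every pair within a locus was counted, and the protocadherin and Ugt1a loci, with many symbols each, gave many of the 144. The median is therefore weighted towards such loci and does not describe a typical locus. Gap columns count as differences in all these shares. The kinds rest on letters alone, and the differently named pairs include relatives, such as Ly49si1 and Klra17 at 79.6%. The medians therefore do not show whether copies are more alike than other pairs. RT1-CE12 and RT1-CE6, from the locus of 6 symbols, were 80.4% identical, whereas Slfn4 and Slfn3 were 47.0% identical. Cers1 / Gdf1, a ceramide synthase and a growth factor encoded by a shared transcript, had the same window, with 97.5 and 86.0 and a log2 difference of −0.18.

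Of the loci at the edge of the floor, Anapc11 / Npb and H3f4 / Trim17 lay just inside at 49.3 and Or1f21c / Or1f21b at 49.8, all identical on both arrays. Lrrc71 / Pear1 at 47.4, Krt6c / Krt6a-ps1 at 47.6 and Vom2r65 / Vom2r4 at 48.1 lay just outside, also with identical values. Ly49s7 / Klra5, natural killer cell receptor genes, passed with vehicle only, at 72.4 beside 45.3 with LPS. Hba-a2 / Hba-a1, the alpha globin genes, passed with vehicle only at 57.6 beside 44.6. Of the 209 loci under the floor, 197 were identical on both arrays, and the largest difference among them was 0.30 on the log2 scale.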

How the data were processed

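Each group, vehicle and LPS at 24 h, was 1 array. RNA was purified on columns and its amplified product labelled with biotin (GeneChip WT PLUS kit), per the labels' protocols. Per the submitters' processing notes, RMA was run in Affymetrix Expression Console 1.4.1; any later scaling, the genome build of the array, the pooling of RNA and the number of arrays processed together are not stated in what was used here. The authors deposited linear intensities, with 1 value per cluster and array, from 4.89 to 526444 with vehicle and from 4.49 to 547546 with LPS, with a median of 49.3 on both. RMA pools the probes of a cluster and sets the distributions of arrays equal, so a shared cluster has 1 value for all its genes. Levels of different clusters are not compared, apart from medians of whole sets and the summed markers of cell types. In those sums the clusters with the highest intensities weigh most.

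From the deposited intensities, log2 was taken with no pseudocount, and differences are LPS minus vehicle, called at 2-fold. Python 3.11.15, pandas 2.3.3, statsmodels 0.14.6 (loess, span 0.3) and Biopython 1.88 (global alignment) were used. Symbols came from the platform annotation, which can be old. They were resolved by gene ID, symbol or synonym to RefSeq genes of GRCr8, which served for names, order, strand and sequences. The chromosome in the cluster ID matched RefSeq for 98.7% of 21788 single-symbol clusters. The number of arrays limits the precision.

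Members, kinds and the 7 lists were chosen with earlier results of these data known. H19 matches the list pattern for H1 histones by its letters and was not counted there. Named loci were all at least 2-fold apart, up to 4 of the largest differences and 2 of the highest levels of each kind, C2 / Cfb, Myh6, every microRNA locus and the lists' loci, 96 in all. Cers1 / Gdf1, the genes compared with their own clusters and the loci at the floor's edge were named outside that rule, some of them after their values were seen. The alternatives were other floors and sizes, centring, loess, raising low values, 1 cluster per set of symbols, identical values left out, the mean over own clusters, and, added later, leaving out loci of 1 current gene or of histone, ribosomal and RT1 genes.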

Additional observations from a re-analysis of the deposited data

How the results depend on the processing

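With 1 array per group no setting gives an error, and the number of arrays limits the precision. No paired analysis was possible because each group has 1 array. The 12 higher loci became 20 at 1.5-fold, 7 at 3-fold and 7 without histone, ribosomal and RT1 loci. The 5 lower ones became 13 at 1.5-fold, 1 at 3-fold and 3 without loci of 1 current gene. By kind at 1.5-fold, lower microRNA loci went from 1 to 2, higher loci with a predicted gene from 0 to 1, and differently named genes from 2 to 7 higher and from 0 to 6 lower. No floor, the 75th percentile floor (174 loci), centring (a shift of 0), loess, 1 cluster per set of symbols (290 loci) and leaving out identical values (147 loci) moved the count of higher loci by 0. With low values raised to 239 it was 11, without loci of 1 current gene 11, and the lower count was 4 with the 75th percentile floor or with low values raised. These settings shift counts by their own construction.

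The median stayed within 0.1 of 0 under every setting, at −0.03 after loess and −0.04 without identical values. Of the 96 named loci, 88 moved by less than 0.318, the 84th percentile of absolute differences, when low values were raised. The other 8 were C2 / Cfb, at a log2 difference of 3.59, Igtp / Irgm2 at 1.07, Phf11b / Phf11 at 0.10, and Trim5 / Trim30d, LOC102550512 / LOC102552542, H3f4 / H3c1, H19 / Mir675 and Ms4a6bl1 / Ms4a6b at 0. Loess and centring moved none of the 96 by that much. Loess changed the sign of 4 of the 65 that were not identical, none above 0.14 in size. These tolerances were chosen after the data were seen.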
